A study of Mus musculus with 6 samples.

Results

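The genes of the tumour necrosis factor (TNF) ligand and receptor superfamily were followed in the spleen of immunosuppressed mice. Members were taken as the array probes whose RefSeq transcript carries a symbol beginning with Tnfsf or Tnfrsf, or one of Tnf, Lta, Ltb, Ltbr, Cd40, Cd40lg, Cd27, Cd70, Fasl and Ngfr. The array held 41 such genes on 52 probes, out of 20655 genes with a symbol and 39429 probes, and 17 of the 41 were ligands and 24 receptors. RefSeq lists 43 symbols under this rule, and Tnfsf13 and its antisense gene Tnfsf13os matched no probe.

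Spleen RNA of male ICR mice, an outbred stock, aged 8 weeks, was labelled with the dye Cy3 and hybridised to 1-colour Agilent arrays, 1 sample to an array. In both groups immunosuppression was induced with 40 mg/kg cyclophosphamide, which alkylates DNA and is toxic to dividing lymphocytes, injected into the peritoneum for 5 days. By the protocol text the model group (MOD, arrays 1 to 3) then received distilled water by mouth, and the high-dose group (SA-H, arrays 4 to 6) received 1000 mg/kg of schizandrol A, a lignan of Schisandra fruit, daily for 28 days. The paper gives its SA-H group a different dose and a shorter course, and the sample titles say only Medicine. No array of an untreated control was analysed here. The MOD arrays are labelled day 5 and the SA-H arrays day 28, while the protocol text gives MOD mice water over the same weeks; the label and the protocol disagree, and by the labels schizandrol A and the day cannot be told apart. No label states that the arrays of a group came from separate mice, so p-values here reflect only how far these samples differ, and that spread may be technical.

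Ligands of this family are mostly membrane proteins that act as trimers, and many can be cut from the cell surface. Their receptors recruit TRAF adaptor proteins, which lead to NF-kB and kinase signalling, and some receptors carry a death domain through which they can start apoptosis. In the spleen, lymphotoxins and their receptor LTBR keep the organisation of the white pulp, BAFF keeps B cells alive, and receptors such as 4-1BB, OX40 and GITR costimulate T cells. In whole spleen, fewer cells of a type and less RNA per cell cannot be told apart.

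The 75th percentile of the signal lay between 220 and 868 over the 6 arrays, and 43.1% to 73.9% of the spots were called well above background by the scanner software. Levels below are log2 signals relative to that percentile, so that 0 is the signal of the 75th percentile spot of the array. Arrays MOD 2 and SA-H 5 had more spots above background (72.2% and 73.9%) than the other 4 arrays (43.1% to 49.4%), and SA-H 4 had the lowest 75th percentile. Defining markers of B cells (9 of 10 tested) and T cells (9 of 10) passed the filter described below, and every marker of both lists was above background on at least 1 array. Of the 10 liver markers 3 passed the filter. Serpina1a was above background on all 6 arrays, with a mean level of 2.87 in MOD and 2.23 in SA-H. Apoa1 and Ttr were above background on no array, and the rest of the list was on at least 1. The extraction protocol in the labels speaks of liver powder, and the part of liver RNA in these samples was not tested.

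Family genes were seen on most arrays, but not evenly. In MOD the number well above background was 24, 38 and 30, and in SA-H it was 24, 38 and 26, in the order of the array numbers. Of the 41 genes, 21 were above background on all 6 arrays, 4 on 5, 1 on 4, 6 on 3, 5 on 2, 2 on 1, and 2, Cd40lg and Cd70, on no array. Cd40lg encodes the ligand with which activated T cells help B cells, and Cd70 encodes the ligand of CD27. The 2 arrays with the highest counts are those with the highest share of all spots above background, MOD 2 and SA-H 5.

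**Figure D1:**
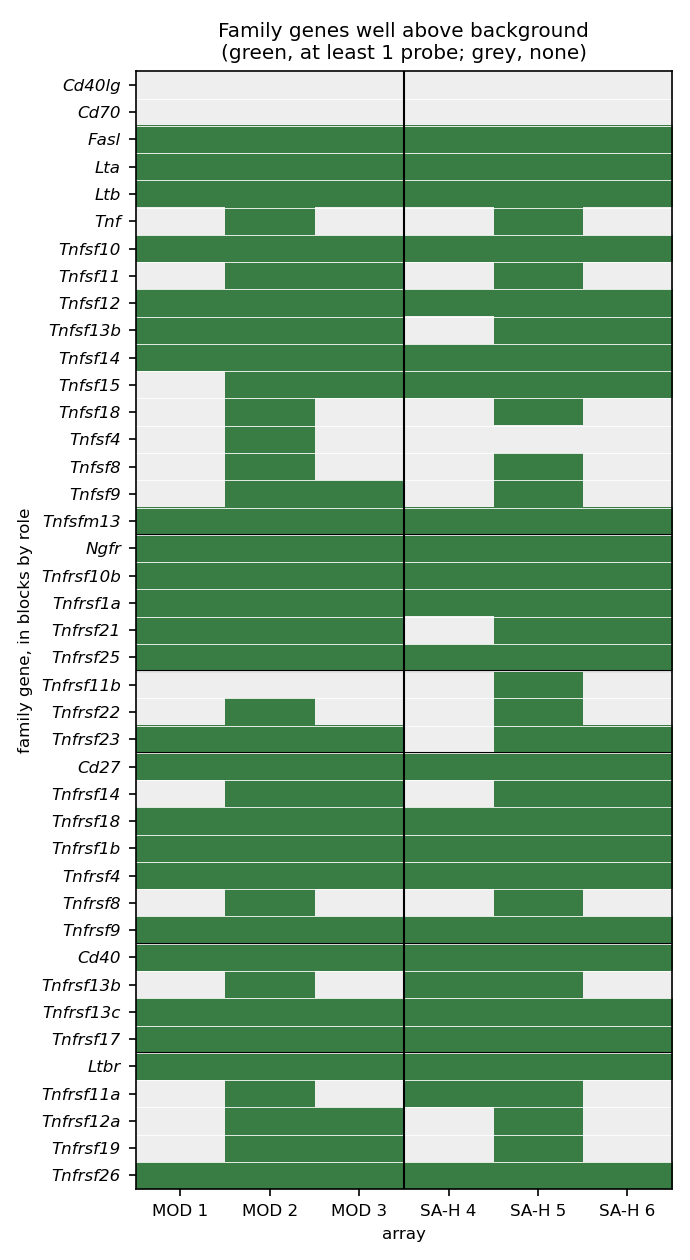
Family genes (rows, in blocks by role: ligands, death domain receptors, decoy receptors, costimulatory receptors, receptors of B cells, other receptors) on each of the 6 arrays (columns); green marks a gene with at least 1 probe well above background. The columns of MOD 2 and SA-H 5 hold 38 green cells each, and those of MOD 1 and SA-H 4 hold 24 each.

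A gene was tested if one of its probes was above background throughout at least 1 of the groups (3 of its 3 arrays), which left 25 family genes, 9 ligands and 16 receptors, among 14474 genes and unnamed targets. Of the 16 that were not tested, 12 were above background on both MOD 2 and SA-H 5. Tnf, the founding member, was among them: its level was -4.54, -3.53 and -3.65 in MOD and -4.36, -3.50 and -4.14 in SA-H, and it was above background only on MOD 2 and SA-H 5. No difference is given for Tnf for that reason. The other untested genes were the ligands Cd40lg, Cd70, Tnfsf4, Tnfsf8, Tnfsf9, Tnfsf11 and Tnfsf18 and the receptors Tnfrsf8, Tnfrsf11a, Tnfrsf11b, Tnfrsf12a, Tnfrsf13b, Tnfrsf14, Tnfrsf19 and Tnfrsf22. Tnfrsf14, which encodes the LIGHT receptor HVEM, has 2 probes, above background on 2 and on 4 arrays.

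The data show 4 ligands and a pair of receptors that were higher in the SA-H group, and a pair of receptors that was lower, at a threshold that none passed after adjustment. At an unadjusted limma p under 0.05, Tnfsf10, Tnfsf12, Tnfsf14, Tnfsf15, Ltbr and Tnfrsf1b were higher, 6 of 25, where 10.8% of all tested genes were higher. Tnfrsf21 and Tnfrsf9 were lower, 2 of 25, where 12.5% of all tested genes were lower. Tnfsf15 and Tnfrsf21 passed the filter only through the group in which they were high, so the filter itself favoured a difference, and both drop out when a gene must be above background on all 6 arrays. At a fold of at least 2 with the same p, 4 members were higher (background 7.74%) and 2 were lower (background 5.03%). After Benjamini-Hochberg adjustment over all 14474, 0 genes passed the 0.05 threshold in limma, in the family or outside it (8 members and 3376 genes at unadjusted p under 0.05), and the smallest adjusted p of any gene was 0.0712. With 3 arrays in each group, an exact permutation test of a single gene cannot give a two-sided p below 0.1.

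The levels did not overlap between groups for 6 members higher in SA-H (background 11.9%), namely Lta, Ltbr, Tnfrsf1b, Tnfsf10, Tnfsf14 and Tnfsf15, and for 1 lower, Tnfrsf21 (background 20.7%). The median difference, SA-H minus MOD, was 0.28 on the log2 scale over the 25 tested members and -0.039 over all tested genes, and scaling by the median of each array, which shifts all genes by -0.32, turned the member median to -0.037. Without SA-H 4 the member median was 0.43 (26 members tested), and without MOD 1 (30 members tested) it was 0.11 and its gap from all genes 0.14, against 0.32 as reported, and without SA-H 6 that gap was 0.19. Of the 25 differences 17 were above 0, against 47.7% of all tested genes. For the ligands the median was 0.65, with 6 of 9 above 0, and for the receptors 0.19, with 11 of 16 above 0.

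**Figure D2:**
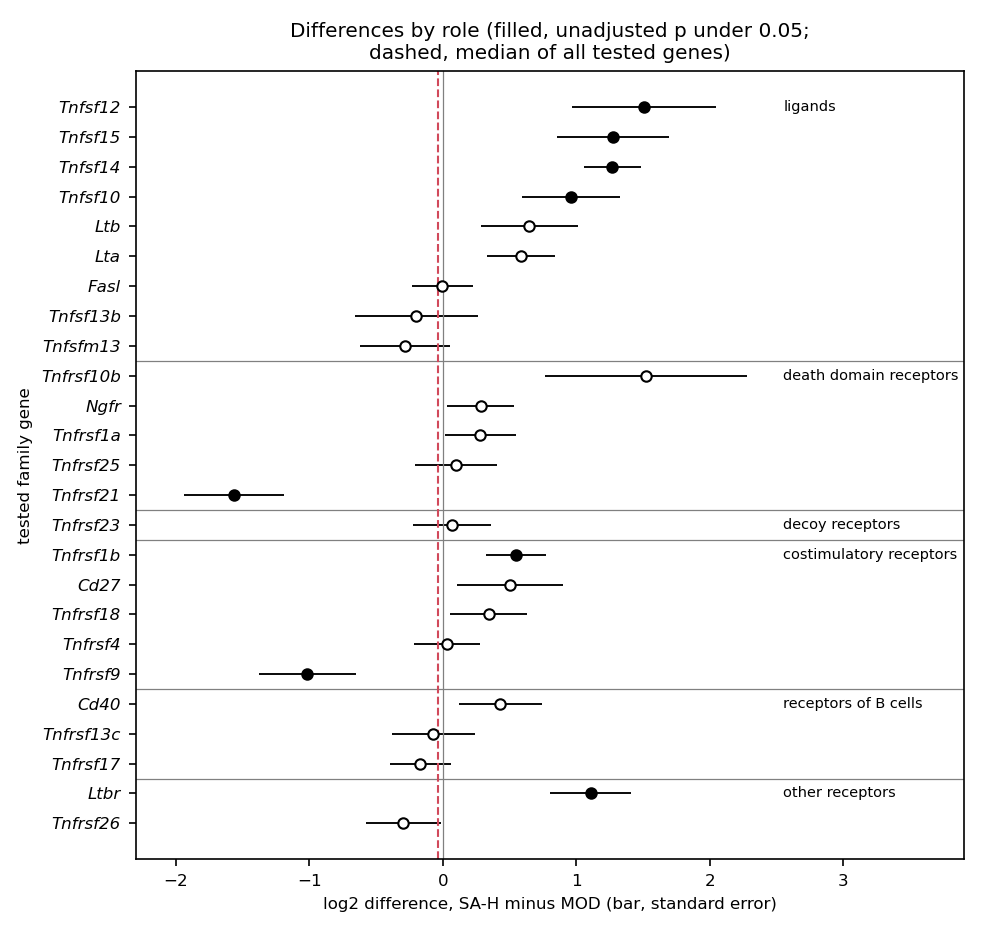
Difference in log2 level, SA-H minus MOD, for the 25 tested family genes in blocks by role, with the limma standard error as bar; filled points have an unadjusted p under 0.05 and the dashed line is the median of all tested genes, -0.039. The 4 filled ligands lie between 0.96 and 1.51, and Tnfrsf21 is the lowest point at -1.56.

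Among the ligands, Tnfsf14, which encodes LIGHT, a ligand of HVEM and LTBR that activates T cells and stromal cells, had the smallest p of the family. Its level was -1.28, -1.41 and -1.35 in MOD and -0.12, -0.17 and 0.06 in SA-H. The groups did not overlap and each was tight, and SA-H was 2.41-fold higher (log2 difference 1.27 ± 0.21 SE, adjusted p = 0.0768). With scan day as a block, which sets the lone array SA-H 5 aside, the difference was 1.34 with an adjusted p of 0.0318. With slide scan as a random block the adjusted p was 0.0588. Within the 2 scan days that hold both groups the difference was 1.38 and 1.29. Day 1 holds MOD 1, MOD 3 and SA-H 6, and day 2 holds MOD 2 and SA-H 4, so each value rests on 1 SA-H array. The unadjusted p stayed under 0.05 without any 1 array (difference 1.20 to 1.32) but not with median scaling (0.95) or in the value table of the authors, a second deposited table of log2 values (0.17).

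The upstream sequences of Tnfsf14 and its receptor gene Ltbr, both higher in SA-H, of Tnfrsf21, the member with the lowest difference, and of Ltb, the partner of LTBR in lymphotoxin signalling, are shown to compare the start regions of members that differed in direction. Each is the 250 bases before the RefSeq transcription start in GRCm38.p6, read 5′ to 3′ on the strand of the gene, with motif matches in capitals.
Tnfsf14, chr17:57194182-57194431, minus strand: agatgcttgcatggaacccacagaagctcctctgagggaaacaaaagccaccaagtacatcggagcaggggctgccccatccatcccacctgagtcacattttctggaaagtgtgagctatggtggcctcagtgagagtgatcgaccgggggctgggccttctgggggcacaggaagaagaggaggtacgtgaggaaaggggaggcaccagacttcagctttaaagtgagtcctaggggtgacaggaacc
Ltbr, chr6:125313886-125314135, minus strand: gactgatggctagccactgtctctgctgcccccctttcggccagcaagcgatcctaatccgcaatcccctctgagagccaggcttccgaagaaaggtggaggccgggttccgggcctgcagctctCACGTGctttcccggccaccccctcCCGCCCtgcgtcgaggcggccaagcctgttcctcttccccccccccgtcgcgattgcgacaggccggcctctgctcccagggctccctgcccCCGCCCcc
Tnfrsf21, chr17:43016305-43016554, plus strand: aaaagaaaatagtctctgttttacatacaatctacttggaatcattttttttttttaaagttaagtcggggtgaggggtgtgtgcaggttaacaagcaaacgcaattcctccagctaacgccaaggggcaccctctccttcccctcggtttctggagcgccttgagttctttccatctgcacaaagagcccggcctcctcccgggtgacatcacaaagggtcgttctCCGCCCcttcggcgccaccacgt
Ltb, chr17:35194257-35194506, plus strand: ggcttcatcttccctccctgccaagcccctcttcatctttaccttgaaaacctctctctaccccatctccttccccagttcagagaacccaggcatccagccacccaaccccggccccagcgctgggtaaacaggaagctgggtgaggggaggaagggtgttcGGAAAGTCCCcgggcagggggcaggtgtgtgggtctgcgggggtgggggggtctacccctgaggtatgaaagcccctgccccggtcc

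The motifs searched on both strands were the kappaB consensus of NF-kB, by name, the TATA box TATAAA, the GC box GGGCGG, the interferon response element GAAANNGAAA and the E box CACGTG, whose matches do not share bases in these windows. Ltb holds a kappaB match that begins 87 bases before the start. Ltbr holds an E box 125 bases and GC boxes 100 and 8 bases before it, and Tnfrsf21 a GC box 23 bases before it. The kappaB match and the GC boxes are written there as the reverse complement. The Tnfsf14 window holds none of the 5 motifs. RefSeq windows were found for 31 of the 41 members, 35 windows in all. A kappaB match lay in 4 of 35, those of Ltb, Tnfrsf8, Tnfrsf9 and Tnfrsf25, and in 5.0% of all 32851 windows. The TATA box was in 6 of 35 (12.4% of all), the GC box in 15 (32.7%), the interferon element in 4 (2.98%) and the E box in 4 (6.02%). These matches describe the letters only and are no evidence of binding.

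Tnfsf15, Tnfsf12 and Tnfsf10 were also higher, with wider spread. Tnfsf15 encodes TL1A, the ligand of the death receptor DR3. Its level was -3.84, -3.68 and -3.02 in MOD, the first not above background, and -1.42, -2.78 and -2.52 in SA-H. SA-H 4 was the highest array (difference 1.27 ± 0.42 SE, adjusted p = 0.147), and since MOD 1 was not above background the size of the difference is uncertain. The call was lost without MOD 1 (1.11), with median scaling (0.95), quantile normalization (1.04) and normexp (0.74), and with the analysis of variance of the methods. Tnfsf10, which encodes the death ligand TRAIL, measured -2.32, -2.18 and -1.66 in MOD and -0.39, -1.47 and -1.43 in SA-H. SA-H 4 again stood above the rest (difference 0.96 ± 0.37 SE, adjusted p = 0.185), and without it the difference was 0.60. The call was lost without SA-H 4, MOD 1 (0.82) or MOD 2 (0.89), with median scaling (0.64), quantile normalization (0.86), no filter and the analysis of variance, and in the value table (-0.14).

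Tnfsf12 encodes TWEAK, a ligand of Fn14 made by many cells, leukocytes among them. Its level was -1.03, -0.90 and -2.01 in MOD and -0.92, 0.57 and 0.93 in SA-H. SA-H 4 lay among the MOD arrays (difference 1.51 ± 0.54 SE, adjusted p = 0.167). The call was lost without MOD 3 (1.16), SA-H 5 (1.31) or SA-H 6 (1.14), with slide scan as a random block (1.18) and with the analysis of variance. In the value table the difference was -0.39, and Tnfsf12 passed the unadjusted threshold there as lower. Within scan day 1 the difference was 2.45 and within scan day 2, which pairs MOD 2 with SA-H 4, it was -0.03. Tnfsf12 overlaps the readthrough gene Tnfsfm13, which joins it to the gene of APRIL, so their probes may report shared transcripts. Tnfsfm13 measured 1.22, 0.87 and 1.30 in MOD and 0.22, 1.00 and 1.33 in SA-H (difference -0.28 ± 0.34 SE). Its second probe gave a difference of 1.08, so the 2 probes of that gene pointed in opposite directions.

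The lymphotoxin genes Lta and Ltb, which lie beside Tnf on chromosome 17, did not pass the test. Lta encodes the secreted lymphotoxin alpha. It measured 0.25, -0.08 and 0.62 in MOD and 0.83, 0.86 and 0.84 in SA-H. The 3 SA-H arrays lay close together and above every MOD array (difference 0.58 ± 0.26 SE, adjusted p = 0.224), and without MOD 3 the difference was 0.76 with an unadjusted p under 0.05. Ltb encodes lymphotoxin beta, which holds lymphotoxin alpha at the membrane. It measured 4.08, 3.79 and 4.88 in MOD and 5.18, 4.43 and 5.09 in SA-H, and MOD 3 lay above SA-H 5 (difference 0.65 ± 0.36 SE, adjusted p = 0.311); without MOD 3 the difference was 0.96 with an unadjusted p under 0.05. Fasl, the death ligand of cytotoxic lymphocytes, differed by -0.0047 (SE 0.23), and Tnfsf13b, which encodes BAFF, by -0.20 (SE 0.46). Tnfsf13b measured -1.85, -2.43 and -1.66 in MOD and -3.18, -1.74 and -1.60 in SA-H. SA-H 4 was not above background for it, so the size and sign of its difference are uncertain.

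**Figure D3:**
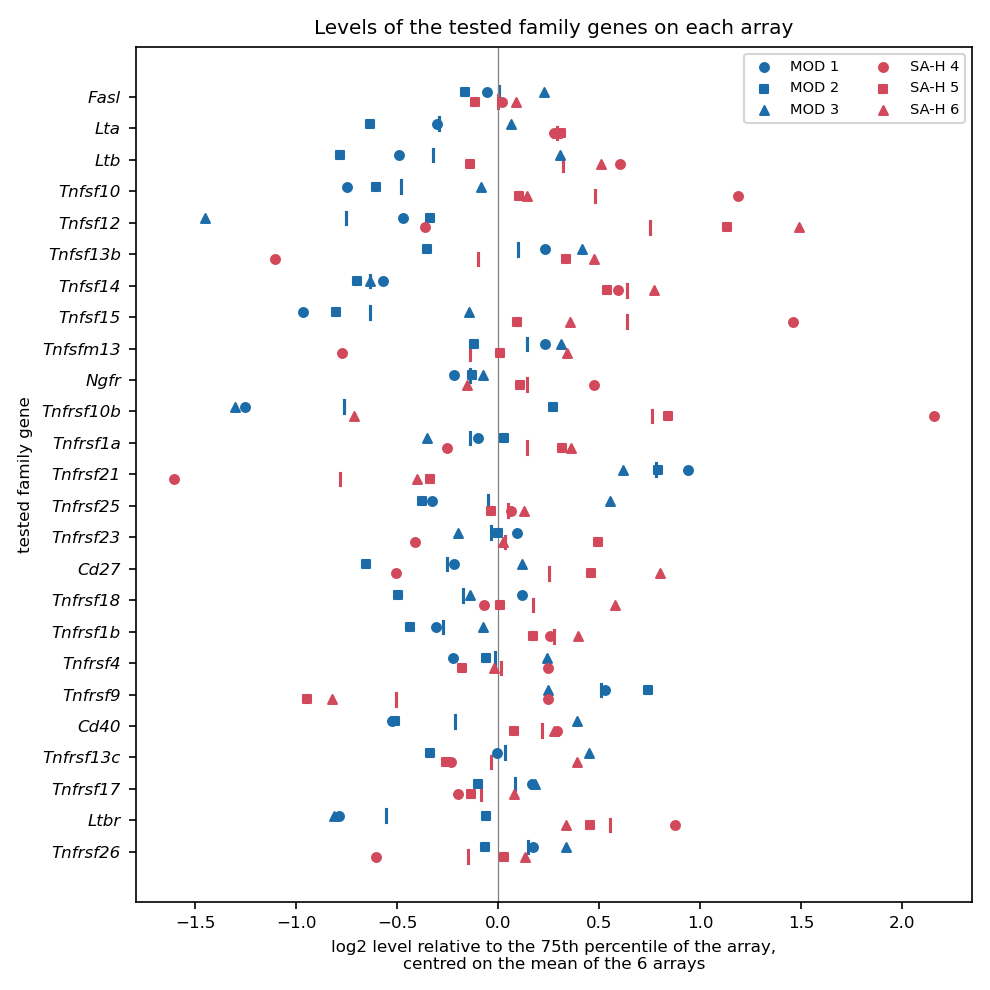
Log2 level of each tested family gene on each array relative to the 75th percentile, centred on the mean of the 6 arrays; blue marks MOD, red marks SA-H, the symbol gives the array and the short bar the group mean. Tnfsf14 shows 2 separate tight groups, while Tnfsf10, Tnfsf15 and Tnfrsf10b spread to the right with SA-H 4.

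Of the 5 receptors with a death domain, 1 was lower in SA-H (background 12.5%) and 0 were higher (background 10.8%). Tnfrsf21 encodes DR6, a receptor known in mice to restrain T helper and B cell responses. It measured -1.01, -1.16 and -1.33 in MOD and -3.55, -2.28 and -2.35 in SA-H, where SA-H 4 was not above background. The measured difference was -1.56 ± 0.38 SE (adjusted p = 0.0935), with all SA-H arrays below all MOD arrays, but the gene was tested through the MOD arrays alone and the low value of SA-H 4 is not a measured level. The unadjusted p stayed under 0.05 in all 16 settings in which it could be tested, the filter on all 6 arrays not being one of them. Without any 1 array the difference lay between -1.79 and -1.15. Of the tested settings only the fit without SA-H 4 (-1.15) leaves that array out, so the others do not show how large the difference is. With scan day as a block the adjusted p was 0.0374, and with slide scan as a random block it was 0.0651. Within the scan days the difference was -1.18 and -2.40, the second being SA-H 4 against MOD 2.

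Tnfrsf10b, the TRAIL receptor that can start apoptosis, had the widest standard error of the tested members. It measured -1.61, -0.09 and -1.66 in MOD and 1.80, 0.49 and -1.07 in SA-H. The groups overlapped (difference 1.52 ± 0.76 SE, adjusted p = 0.265), and the unadjusted p was under 0.05 without MOD 2 (2.04) or without SA-H 6 (2.26). Tnfrsf1a, the main receptor of TNF on most cells, measured 1.76, 1.89 and 1.51 in MOD and 1.61, 2.18 and 2.22 in SA-H. Its difference of 0.28 ± 0.27 SE was within the spread, and its other kept probe gave -0.41. Tnfrsf25, the DR3 gene, measured -0.46, -0.51 and 0.41 against -0.08, -0.17 and -0.01 (difference 0.10 ± 0.31 SE). Ngfr, the p75 neurotrophin receptor gene, differed by 0.28 ± 0.25 SE. The decoy receptor gene Tnfrsf23 measured -2.63, -2.73 and -2.93 in MOD and -3.14, -2.23 and -2.70 in SA-H (difference 0.07 ± 0.29 SE). SA-H 4 was not above background for it. The decoy genes Tnfrsf22 and Tnfrsf11b were not tested. Tnfrsf22 measured -5.24, -4.29 and -5.79 in MOD and -2.67, -2.93 and -4.34 in SA-H, above background on MOD 2 and SA-H 5 only.

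The receptors that costimulate T cells split. Tnfrsf9 encodes 4-1BB, a receptor of activated T and NK cells. It measured 4.45, 4.66 and 4.17 in MOD and 4.17, 2.97 and 3.10 in SA-H, so that SA-H 4 lay at the lowest MOD array (difference -1.01 ± 0.37 SE, adjusted p = 0.169). A second Tnfrsf9 probe measured -2.98, -2.57 and -2.59 against -1.85, -2.37 and -2.24, a difference of 0.56 in the opposite direction, and with the mean of both probes the difference was -0.23 and did not pass. The call was also lost without MOD 1 (-1.003), MOD 2 (-0.90), SA-H 5 (-0.79) or SA-H 6 (-0.86), with the analysis of variance and in the value table (-0.17). Tnfrsf1b, which encodes the second TNF receptor, found mainly on leukocytes, measured -1.20, -1.33 and -0.97 in MOD and -0.64, -0.72 and -0.50 in SA-H. The groups did not overlap but lay close together (difference 0.55 ± 0.23 SE, adjusted p = 0.205). The call was lost with median scaling (0.23) and without MOD 1 (0.53), MOD 2 (0.47), SA-H 5 (0.60) or SA-H 6 (0.49), with quantile normalization (0.51) and no filter, and in the value table (0.021).

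Tnfrsf18, the GITR gene of regulatory and activated T cells, measured 2.25, 1.63 and 1.99 in MOD and 2.06, 2.14 and 2.71 in SA-H (difference 0.34 ± 0.29 SE). Cd27 differed by 0.50 ± 0.39 SE, and by 0.24 with its other probe; without SA-H 4 the difference was 0.88 with an unadjusted p under 0.05. Tnfrsf4, the OX40 gene, differed by 0.03 ± 0.25 SE. None of the 3 genes passed the test over all 6 arrays.

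Receptors of B cells had no called member among 3 tested of 4. Cd40, through which T cells help B cells, measured 1.31, 1.32 and 2.22 in MOD and 2.12, 1.91 and 2.11 in SA-H. MOD 3 was higher than every SA-H array (difference 0.43 ± 0.31 SE), and without MOD 3 the difference was 0.73 with an unadjusted p under 0.05. Tnfrsf13c, the BAFF receptor gene, measured 2.41, 2.08 and 2.87 against 2.18, 2.16 and 2.81, a difference of -0.07 ± 0.31 SE. Tnfrsf17, the BCMA gene of plasma cells, differed by -0.17 ± 0.23 SE. The plasma cell marker Xbp1 was lower in SA-H (difference -0.96 ± 0.25 SE, adjusted p = 0.106), as 1 of 5 tested plasma cell markers (background 12.5%). Mzb1, Jchain and Irf4 (-0.80, -0.65 and -0.61) and Prdm1, in the opposite direction (0.95), did not pass. The summed level of the list was 60.3 to 71.1 times the 75th percentile in MOD and 23.7 to 57.5 times in SA-H. Jchain, the brightest tested plasma cell marker, makes up most of that sum, and its level was lowest on SA-H 4. The part of plasma cells in these values was not tested.

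Among the other receptors, Ltbr was higher. It encodes the lymphotoxin beta receptor of stromal and myeloid cells, and its level was 0.65, 1.37 and 0.62 in MOD and 2.31, 1.89 and 1.77 in SA-H. The groups did not overlap, with MOD 2 nearest to SA-H, and the fold was 2.16 (difference 1.11 ± 0.30 SE, adjusted p = 0.111). The unadjusted p stayed under 0.05 without any 1 array (0.95 to 1.36) but not with median scaling (0.79) or in the value table of the authors (0.12), and within the scan days the difference was 1.13 and 0.94. Tnfrsf26, an orphan receptor gene of the mouse, measured -1.18, -1.42 and -1.02 in MOD and -1.96, -1.32 and -1.22 in SA-H (difference -0.30 ± 0.28 SE).

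Markers of other cells were counted in the same way (backgrounds as above, 10.8% higher and 12.5% lower). NK cell markers Gzma and Prf1 were higher in SA-H (2 of 4 tested, differences 0.86 and 0.79), and Ncr1 and Eomes did not pass (0.96 and 0.32). The summed NK marker level, in multiples of the 75th percentile, was 13.7 to 14.9 in MOD and 19.6 to 36.2 in SA-H. Gzma, the brightest tested NK marker, makes up most of that sum. Of 6 tested stromal markers, 0 were higher and 1, Col3a1, was lower, and of 8 tested macrophage markers 1 was higher and 1 lower. Of 5 tested dendritic cell markers 1, Siglech, was higher. Flt3, Itgax, Clec9a and Xcr1 did not pass (-0.45, 0.23, 0.18 and 0.015). The summed level of the list was 37.0 to 54.5 in MOD and 46.4 to 143.9 in SA-H, most of it from Siglech. Of 3 tested liver markers 1, Serpina1a, was lower (-0.65 ± 0.22 SE) and 0 were higher. Fat markers were lower for 4 of 5 tested (summed level 8.34 to 11.7 in MOD, 5.03 to 5.48 in SA-H). Of these, Cidec, Car3 and Adipoq were tested through the MOD arrays alone, and SA-H 4 was not above background for any of them. The same held for C1qa, the lower macrophage marker, so the sizes of these differences are uncertain. Among 21 ribosomal protein genes, used as a sign of RNA composition, 5 were higher and 1 was lower, with a summed level of 1278 to 1613 in MOD and 1603 to 3461 in SA-H. The part of these cells and of RNA composition in the family values was not tested.

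Of 19 ligand and receptor pairs that were set side by side, 7 had both genes tested, 7 only the receptor, 3 only the ligand and 2 neither. In the pair Tnfsf14 and Ltbr both genes were higher, by 1.27 and 1.11. The pair Ltb and Ltbr gave 0.65 and 1.11, and Tnfsf10 and Tnfrsf10b gave 0.96 and 1.52, of which Ltb and Tnfrsf10b did not pass the test. For Tnfsf15 and Tnfrsf25 the ligand was higher by 1.27 and the receptor differed by 0.10. For BAFF and its receptor genes Tnfrsf13c and Tnfrsf17 the differences were -0.20, -0.07 and -0.17, the first uncertain because SA-H 4 was not above background. The lower receptor Tnfrsf9 has an untested ligand gene, Tnfsf9, above background on 3 arrays, and the receptor gene of TWEAK, Tnfrsf12a, was likewise above background on 3 arrays.

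**Figure D4:**
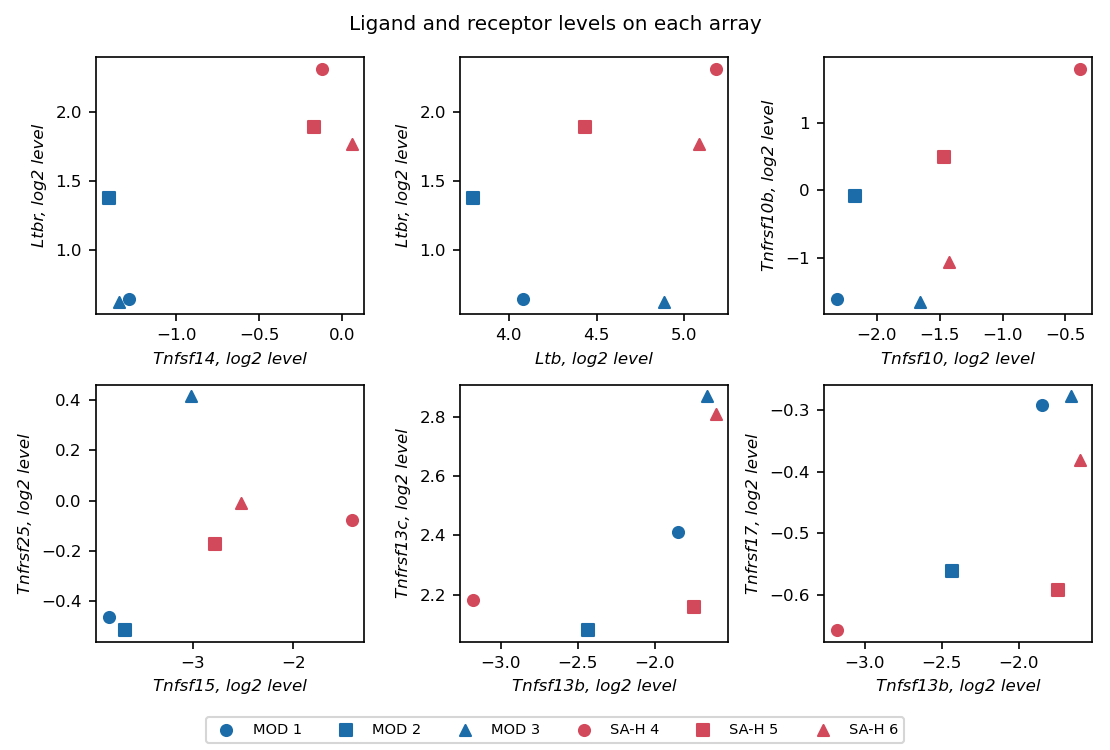
Log2 levels of a ligand gene (horizontal) and its receptor gene (vertical) on each array for 6 pairs with both genes tested; blue marks MOD, red marks SA-H and the symbol gives the array. In the Tnfsf14 and Ltbr panel the SA-H arrays lie above and to the right of every MOD array, and in the Tnfsf13b panels the groups are mixed.

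The family genes lie in groups on several chromosomes, and some neighbours can be compared. On chromosome 17, Tnfsf14 was higher while its neighbours Cd70 and Tnfsf9 were not tested, and on chromosome 6 the neighbours Cd27, Ltbr and Tnfrsf1a gave 0.50, 1.11 and 0.28. Chromosome 4 held 9 members, of which 6 were tested, 2 were higher (background 10.8%) and 1 was lower (background 12.5%).

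Genes that act with the family, on 6 lists of adaptors, ubiquitin enzymes, death regulators, kinases and NF-kB factors, cleaving enzymes and TNF-induced genes, were counted in the same way. Of 72 listed genes 62 were tested, 1 was higher and 9 were lower at an unadjusted limma p under 0.05 (backgrounds as above, 10.8% and 12.5%), and their median difference was -0.21. None passed after adjustment. Of 13 tested TRAF and receptor adaptors 3 were lower. Tank, a TRAF-binding regulator of NF-kB, measured -1.94, -2.01 and -2.003 in MOD and -4.78, -3.37 and -3.47 in SA-H (measured difference -1.89 ± 0.40 SE, adjusted p = 0.0880), but it was tested through the MOD arrays alone, with 1 of the SA-H arrays above background, and so were Traf6 and Ikbkg. Traf3, which restrains signalling from BAFF receptor and LTBR, measured 1.45, 1.02 and 1.86 in MOD and 0.27, 0.61 and 0.80 in SA-H (-0.88 ± 0.30 SE). Traf6, the adaptor of CD40 and RANK, differed by -1.32 ± 0.54 SE with overlapping groups. Tank and Traf3, and Chuk and Ikbkg below, had the opposite sign in the value table of the authors.

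Of 17 kinases and NF-kB factors 2 were lower (background 12.5%), both subunits of the IkB kinase. Ikbkb, the IKK beta gene of the same kinase, differed by 0.086 ± 0.45 SE and did not pass. Chuk, the IKK alpha gene, measured 2.93, 2.64 and 3.36 in MOD and 1.53, 1.93 and 2.19 in SA-H (-1.09 ± 0.29 SE, adjusted p = 0.108), and Ikbkg, the NEMO gene, differed by -1.34 ± 0.46 SE. Of 8 death regulators, the caspase inhibitor gene Xiap (-0.94 ± 0.27 SE) and the gene of its antagonist Diablo (-0.69 ± 0.25 SE) were lower. Of 10 ubiquitin enzymes of TNF receptor complexes Rnf31, which encodes the LUBAC subunit HOIP, was higher (0.64 ± 0.23 SE), and of 8 cleaving enzymes Sppl2a, an intramembrane protease that cuts TNF remnants, was lower (-1.48 ± 0.30 SE, adjusted p = 0.0841). Of 6 tested TNF-induced genes Tnfaip2 was lower (-0.62 ± 0.23 SE).

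The 8 called members kept their direction in most settings. The exceptions were Tnfsf12, at -0.03 within scan day 2, and Tnfsf10 and Tnfsf12 in the value table of the authors, at -0.14 and -0.39. The calls held less well in that table. Of the 8, only Tnfsf15 and Tnfrsf21 passed the unadjusted threshold there in their own direction, and Tnfsf12 passed it as lower. The other members called there were Cd27, Cd40, Lta, Ltb, Tnfrsf25 and Tnfrsf4, all higher, and Tnfrsf17, lower. The table thus called a largely different set of members. The columns of that table correlated with the scanner signals of their own arrays at 0.83 to 0.91 over 13892 probes, where different arrays correlated with each other at 0.86 to 0.97. By level 1 of 6 columns was closest to its own array, and by deviations from the mean of the arrays 3 of 6 were, so the table is used as an alternative only.

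**Figure D5:**
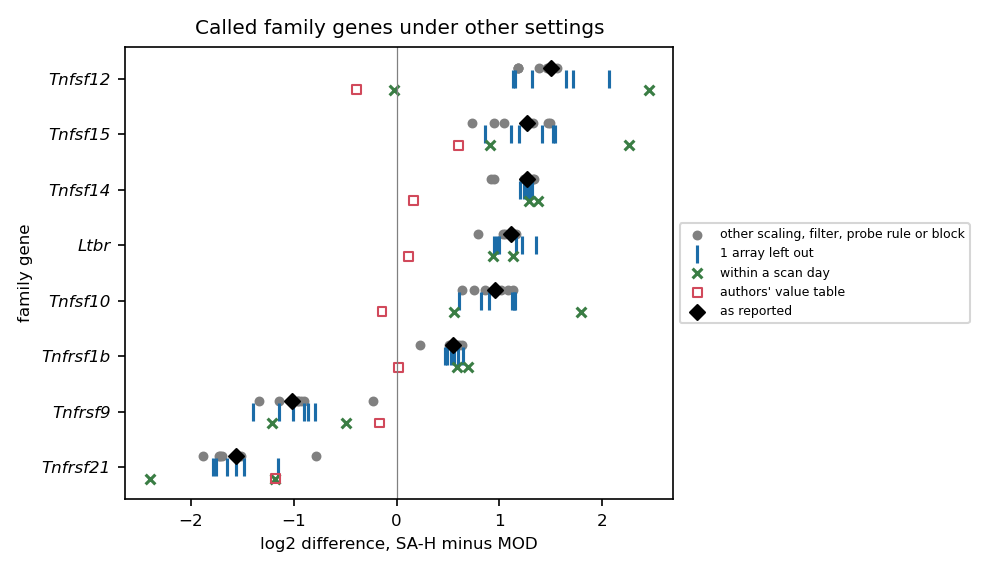
Log2 difference, SA-H minus MOD, of the 8 family genes with an unadjusted p under 0.05 in the reported fit (black diamond), under other scalings, filters, probe rules and blocks (grey), without 1 array (blue bars), within a scan day (green crosses) and in the value table of the authors (red squares). Tnfrsf21 stays below 0 and Tnfsf14 above 0 throughout, and Tnfsf12 crosses 0 in the value table and within scan day 2.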

How the data were processed

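Spleen RNA of 3 MOD and 3 SA-H samples was measured. Per the file headers, the authors obtained the intensity of each spot (processed signal, linear, background subtracted) from Agilent Feature Extraction 11.0.1.1, with no scaling of one array to another. A second deposited table gives log2 values by probe; how the authors made it is not given in the sources used here, and its log base was read from its slope against the scanner signals. Signals were taken as log2 relative to the 75th percentile of the 43020 spots apart from controls; outlier spots (172 to 634 per array) were left out, spots of a probe were averaged, and 0 spots were saturated.

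Probes well above background throughout at least 1 group were kept, and the brightest kept probe stood for its gene. Symbols came from RefSeq accessions (27228 of 39429 probes). The test was that of limma 3.58.1 under R 4.3.3 (lmFit, eBayes, Benjamini-Hochberg over 14474 genes and unnamed targets), tested on simulated data. The analysis of variance was an F test between MOD and SA-H for each gene. The methods of the paper name analysis of variance for the data in general and no test for the arrays. Array numbers are not shared by the groups. Scan days and slide scans were used as blocks; a scan time is not an extraction batch. Without a mean signal column, the normexp alternative used the median spot and background signals with an offset of 50. Promoter sequences are from RefSeq, GRCm38.p6.

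Values on every array are given for members with an unadjusted p under 0.05, for Tnf and for the 2 brightest members of each role, and up to 4 genes are named of each pathway list; Lta and Tnfrsf10b were added after their values were seen. The members and lists were chosen with earlier results of these data known. The number of arrays limits the precision.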

Additional observations from a re-analysis of the deposited data

How the results depend on the processing

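The 6 higher and 2 lower members and 0 adjusted calls were recomputed under each alternative. The count of higher members was 2 with median scaling, 4 with quantile normalization and with the analysis of variance of the methods, and 3 to 8 when 1 array was left out, 3 of them without MOD 1. The count of lower members was 1 with the filter on all 6 arrays, with the mean of kept probes and with the analysis of variance. It was 3 in the value table of the authors (Tnfrsf17, Tnfrsf21 and Tnfsf12), and 1 to 2 without 1 array. Members past the adjusted threshold numbered 1 with median scaling, 3 in the value table and 2 with scan day as a block, and 0 without any 1 array. Members past a fold of 2 numbered 2 with normexp, 4 with median scaling and with the filter on all 6 arrays, 3 in the value table and with the analysis of variance, and 3 to 6 without 1 array. All genes at unadjusted p numbered 3376, and 1765 to 3536 without 1 array (1765 without MOD 1). All genes past the adjusted threshold numbered 1094 with median scaling, 1 with quantile normalization, 213 with normexp, 1 with the filter on all 6 arrays, 1779 in the value table, 1076 with scan day as a block, and 0 to 29 without 1 array. The median of the members was -0.037 with median scaling, and its difference from the median of all genes, 0.32 as reported and with median scaling, was 0.057 with no filter (41 members) and 0.10 in the value table, and 0.14 to 0.45 without 1 array (median 0.11 to 0.43, both lowest without MOD 1). In the value table the difference was -0.14 for Tnfsf10, -0.39 for Tnfsf12, 0.41 for Birc2, 0.00074 for Chuk, 0.20 for Ikbkg, 0.95 for Rhbdf1, 0.036 for Tank and 0.72 for Traf3, each opposite to the scanner signals, and within scan day 2 Tnfsf12 was at -0.028. The cause was not tested. Leaving out 1 array took the unadjusted p past 0.05 for Tnfrsf1b (MOD 1, MOD 2, SA-H 5, SA-H 6), Tnfrsf9 (the same 4), Tnfsf10 (MOD 1, MOD 2, SA-H 4), Tnfsf12 (MOD 3, SA-H 5, SA-H 6) and Tnfsf15 (MOD 1), with ranges of 0.47 to 0.65, -1.39 to -0.79, 0.60 to 1.15, 1.14 to 2.06 and 0.86 to 1.54. Of the 17 members that were not called, 8 passed in some setting, and 46 of 321 values had the opposite sign. Within a scan day no test, and so no count, could be had. No paired analysis was possible because the groups share no replicate number. Dim probes limit the rest: 16 members were not testable.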

Other observations

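Family genes outside the naming rule gave no call. Fas, the death receptor of lymphocytes, measured 1.27, 0.94 and 1.68 in MOD and 0.55, 0.99 and 1.35 in SA-H (difference -0.33 ± 0.31 SE). Relt, a receptor of lymphoid tissue, differed by -0.50 ± 0.33 SE. Edar and Eda2r, receptors of the ectodysplasin ligand, were above background on no array.

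In the value table of the authors, Tnfrsf17, the BCMA gene, differed by -3.69 between the groups, where the scanner signals gave -0.17.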
